A study of Homo sapiens with 16 samples.

Results

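LIN28A, LIN28B and L1TD1 are 3 RNA-binding proteins of human pluripotent cells. They were chosen by name, by these symbols in the deposited table of translation ratios, and are 3 of its 28252 genes. All 3 had a ratio in each of the 8 cultures, which held for 15864 genes. The cells were H9, an established line of human embryonic stem cells, grown without feeder cells in mTeSR1 medium. They received an siRNA labelled NC, taken here as the control siRNA, or siOCT4, an siRNA against the pluripotency factor OCT4 (gene POU5F1), and were kept at 20% oxygen (labelled normoxia) or 1% oxygen (labelled hypoxia). Each of the 4 groups had 2 numbered replicates, called cultures here. Each culture is a pair of libraries with the same label, one of total RNA and one of RNA on ribosome-nascent chain complexes (RNC), 16 libraries in all. The 1 treatment text attached to every library describes siOCT4 at 1% oxygen, so the groups were taken from the siRNA and oxygen labels of each library. Nothing in the labels states separate growth of the replicates, so p-values measure only the spread between these samples, which may be technical.

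LIN28A and LIN28B are paralogues with a cold-shock domain and a pair of zinc knuckles. Both bind precursors of the let-7 microRNAs and keep them from being processed, LIN28A with the help of the uridylyltransferase TUT4, and both also bind many mRNAs. Mature let-7 in turn pairs with sites in the LIN28A and LIN28B mRNAs and lowers their output, so the proteins and the microRNA restrain each other. L1TD1 derives from the first open reading frame of a LINE-1 retrotransposon, is found in ribonucleoprotein particles of human embryonic stem cells together with LIN28A, and is a target of OCT4 and NANOG. The translation ratio of a gene is read here as its level in RNC RNA over its level in total RNA of the same culture. A high ratio means a high RNC level for the RNA level, relative to other genes of that culture. It is not a measured share of the mRNA on ribosomes, since the scaling of the ratio is not stated. The table holds no RNC or RNA level, so a difference of the ratio can come from either, and nothing here measures protein or let-7.

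The let-7 seed and its matches in the 3 mRNAs are shown because they are what links these genes to let-7. In RefSeq (GRCh38.p14) the mature forms of 9 family members all had the same seed, bases 2 to 8, in capitals:
hsa-let-7a-5p: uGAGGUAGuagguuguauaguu
hsa-let-7b-5p: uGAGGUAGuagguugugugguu
hsa-let-7d-5p: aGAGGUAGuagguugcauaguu
hsa-let-7g-5p: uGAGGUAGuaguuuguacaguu
hsa-miR-98-5p: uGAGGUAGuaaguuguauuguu
The DNA letters that pair with this seed are CTACCTC, and the sense strand of the longest protein-coding transcript of each gene (GENCODE release 29) was searched for them. The 3′ untranslated region (UTR) of LIN28A held 1 match, that of LIN28B held 4, and that of L1TD1 held 0. The coding sequence held 0 matches in LIN28A and 1 each in LIN28B and L1TD1. Each match is shown 5′ to 3′ with its neighbouring bases, the match in capitals, its first base counted from 1 at the start of that UTR or coding sequence:
LIN28A 3′ UTR position 905: agcctattgaaCTACCTCattt
LIN28B 3′ UTR position 44: ggttgcaaagtCTACCTCatgc
LIN28B 3′ UTR position 2471: gatgatagtaaCTACCTCtgag
LIN28B 3′ UTR position 2653: acagcaaaaggCTACCTCatag
LIN28B 3′ UTR position 4092: gatggtgttgaCTACCTCttga
LIN28B coding position 430: aggaatgtagtCTACCTCctca
L1TD1 coding position 1481: aaaggtaaagaCTACCTCcctg
Of the 14096 tested mRNAs with an annotated 3′ UTR, 1545 (11%) had a match there, and 0.078% had at least 4. Among UTRs of like length the share with a match was higher. Of the 1917 UTRs of a length like LIN28A's (the shorter at least 0.8 times the longer), 17% had 1 or more. Of the 1391 like LIN28B's, 23.7% had 1 or more. The share with at least 4 was taken over UTRs of all lengths only. A match says only that the letters are there.

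The 3 genes also differ in base composition, which matters for every ratio below. The LIN28A transcript used (GRCh38 chr1:26410778-26429722, plus strand, 4 exons) is 4008 nt long with a GC content of 48.5%. The LIN28B transcript (GRCh38 chr6:104957048-105083332, plus strand, 4 exons) is 5505 nt long with 38.1% GC, of which 4549 nt are a 3′ UTR at 35.9% GC. The L1TD1 transcript (GRCh38 chr1:62194831-62212328, plus strand, 4 exons) is 3849 nt long with 40.5% GC, of which 2598 nt are coding. The deposited values were made on hg19 and carry no coordinates, so these positions describe the annotation only. LIN28B shares exonic sequence with the antisense gene LIN28B-AS1, which had a ratio in 5 of 8 cultures, from 0.631 to 3.09. Whether the counting used strand is not given in the sources used here, and the processed pseudogenes LIN28AP1, LIN28AP2, LIN28AP3 and L1TD1P1 are not listed in the table, so reads of copies and antisense partners may be included.

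The groups differed in how the ratio depended on GC content across all genes. The share of the log2 ratio's variance that followed GC content was 64.9% to 71.7% in the control cultures at 20% oxygen and 64.4% to 66.3% in the siOCT4 cultures at 1% oxygen, where AT-rich transcripts had the high ratios. In the other 4 cultures this share was 0.0624% to 14.2%. Genes within 1 point of the GC content of LIN28B or L1TD1 had higher median ratios in these groups than in the other cultures. L1TD1 departed from such genes in control cells at 1% oxygen, at 0.325 and 0.3732 beside medians of 0.999 and 1.20. Whether composition caused the movement of either gene was not tested. Values are also given relative to the trend: each log2 ratio minus the smooth curve of ratio on GC content in its culture, called GC corrected here. Depth per library is unknown, since the table holds ratios only. POU5F1, the siRNA's target, had ratios of 0.758 and 0.981 with control siRNA and 1.41 and 1.42 with siOCT4 at 20% oxygen. At 1% oxygen its ratios were 1.13 and 0.81 with control siRNA and 0.453 and 0.532 with siOCT4. These are no RNA levels and do not check the knockdown.

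**Figure D1:**
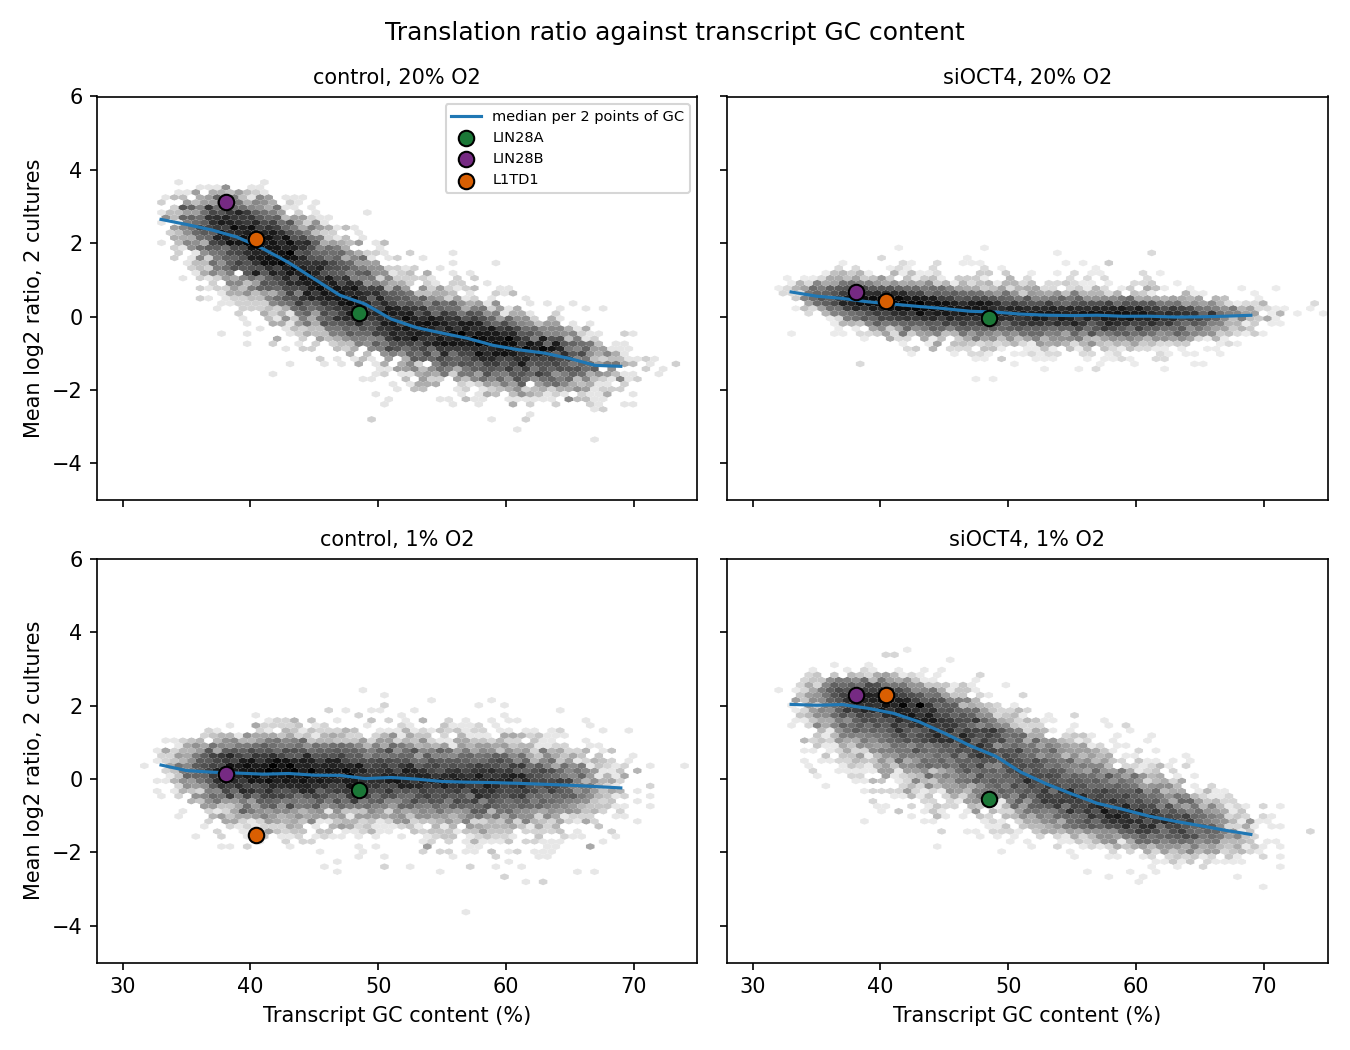
Mean log2 translation ratio of the 2 cultures of each group (vertical axis) against transcript GC content in percent (horizontal axis), with all tested genes as grey density on a log scale, the median per 2 points of GC content as a line and the 3 genes as points. L1TD1 lies far below the line in control cells at 1% oxygen and LIN28A below it in siOCT4 cells at 1% oxygen, while LIN28B lies above it in control cells at 20% oxygen.

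L1TD1 had the widest range of the 3 genes. Its ratio was 4.366 and 4.371 in control cells at 20% oxygen, 1.386 and 1.296 in siOCT4 cells at 20% oxygen, 0.325 and 0.3732 in control cells at 1% oxygen, and 4.521 and 5.265 in siOCT4 cells at 1% oxygen. No group overlapped another, but siOCT4 cells at 1% oxygen (4.89 ± 0.526, SD, n = 2) and control cells at 20% oxygen (4.37 ± 0.00354) did not differ beyond their spread, by 0.16 ± 0.15 (SE) on the log2 scale (limma, adjusted p = 0.457; -0.03 after median centring, and 0.46 with an adjusted p of 0.0406 relative to the GC trend with GC content averaged over transcripts). Below them stood siOCT4 cells at 20% oxygen (1.34 ± 0.0636) and then control cells at 1% oxygen (0.349 ± 0.0341), and each of these steps passed the test (adjusted p = 0.000654 and 0.00927, the latter 0.0908 or 0.0912 without siOCT4 replicate 1 or 2 at 20% oxygen). How many of all genes had groups without overlap was not counted, here or for LIN28B and LIN28A below. The highest group mean of L1TD1 was 14.0 times the lowest. Over single cultures the highest ratio was 16.2 times the lowest, a range wider than that of 94.1% of the genes tested.

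The low value of L1TD1 in control cells at 1% oxygen was not shared by transcripts of like composition. Of all tested genes, 450 and 672 had a lower ratio in these 2 cultures, which puts L1TD1 at percentiles 2.84 and 4.24. Among the 1195 genes within 1 point of its GC content it lay at percentiles 2.09 and 1.09, and their median ratio was 0.999 and 1.20. Relative to the GC trend L1TD1 was at 0.334 and 0.318 of the trend in these cultures, against 1.10 and 1.28 in control and 1.06 and 1.04 in siOCT4 cultures at 20% oxygen, and against 1.40 and 1.60 in siOCT4 cultures at 1% oxygen. Outside the control cultures at 1% oxygen L1TD1 thus lay on or somewhat above the curve for its composition.

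LIN28B had the highest ratio of the 3 genes in control cells at 20% oxygen. Its ratio was 9.36 and 8.087 there, 1.672 and 1.504 in siOCT4 cells at 20% oxygen, 0.9367 and 1.271 in control cells at 1% oxygen, and 4.743 and 5.128 in siOCT4 cells at 1% oxygen. The group means in falling order were 8.72 ± 0.9, 4.94 ± 0.272, 1.59 ± 0.119 and 1.10 ± 0.236 (SD, n = 2), for control at 20%, siOCT4 at 1%, siOCT4 at 20% and control at 1% oxygen. No groups overlapped. The first step was 0.82 ± 0.2 on the log2 scale (limma, adjusted p = 0.0313) and was lost when any of 6 cultures was left out (all but the control cultures at 1% oxygen; highest adjusted p = 0.147). The second was 1.64 ± 0.2 (adjusted p = 0.00127), and the step to the lowest group, 0.54 ± 0.2, did not pass (adjusted p = 0.133).

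The LIN28B value in control cells at 20% oxygen was among the highest of the table, at percentiles 97.9 and 98.4 of the genes tested. Genes of like composition were high there too: the 953 genes within 1 point of its GC content had medians of 5.27 and 4.42, and LIN28B stood at percentiles 89.7 and 92.4 among them. Relative to the GC trend its ratio was 1.88 and 1.95 there, 1.21 and 1.13 in siOCT4 cells at 20% oxygen, 0.959 and 1.05 in control cells at 1% oxygen, and 1.33 and 1.41 in siOCT4 cells at 1% oxygen. LIN28B kept its order of groups on this scale, but the steps below the first did not pass. siOCT4 cells at 1% oxygen stood 0.23 ± 0.12 on the log2 scale above siOCT4 cells at 20% oxygen (limma, adjusted p = 0.189). The latter stood 0.22 ± 0.12 above control cells at 1% oxygen (adjusted p = 0.23). The trend at LIN28B depends on the transcript taken, since the mean GC content of its 3 protein-coding transcripts was 44.4% and not 38.1%. Differences between groups with the mean are given below, while corrected values of single cultures use 38.1% only.

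LIN28A, the paralogue, moved little. Its ratio was 1.004 and 1.157 in control cells at 20% oxygen, 0.9402 and 0.9953 in siOCT4 cells at 20% oxygen, 0.8609 and 0.784 in control cells at 1% oxygen, and 0.6814 and 0.7025 in siOCT4 cells at 1% oxygen. The group means fell in this order from 1.08 ± 0.108 through 0.968 ± 0.039 and 0.822 ± 0.0544 to 0.692 ± 0.0149 (SD, n = 2), without overlap, and no 2 neighbours in the order passed the test (adjusted p = 0.377, 0.314 and 0.175 with limma). The outer groups differed by 0.64 ± 0.14 on the log2 scale (adjusted p = 0.0237; above 0.05 without any of 5 cultures, which were control replicate 2 at 20% oxygen and all 4 siOCT4 cultures, up to 0.122). The highest of its group means was 1.56 times the lowest. Over single cultures the highest ratio was 1.7 times the lowest, a range wider than that of only 5.12% of the genes tested. In siOCT4 cells at 1% oxygen, where the 1031 genes within 1 point of its GC content had medians of 1.60 and 1.56, LIN28A stood at percentiles 7.37 and 9.41 among them, and it was 0.444 and 0.461 of the GC trend; in the other 6 cultures it was 0.751 to 0.949 of the trend.

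**Figure D2:**
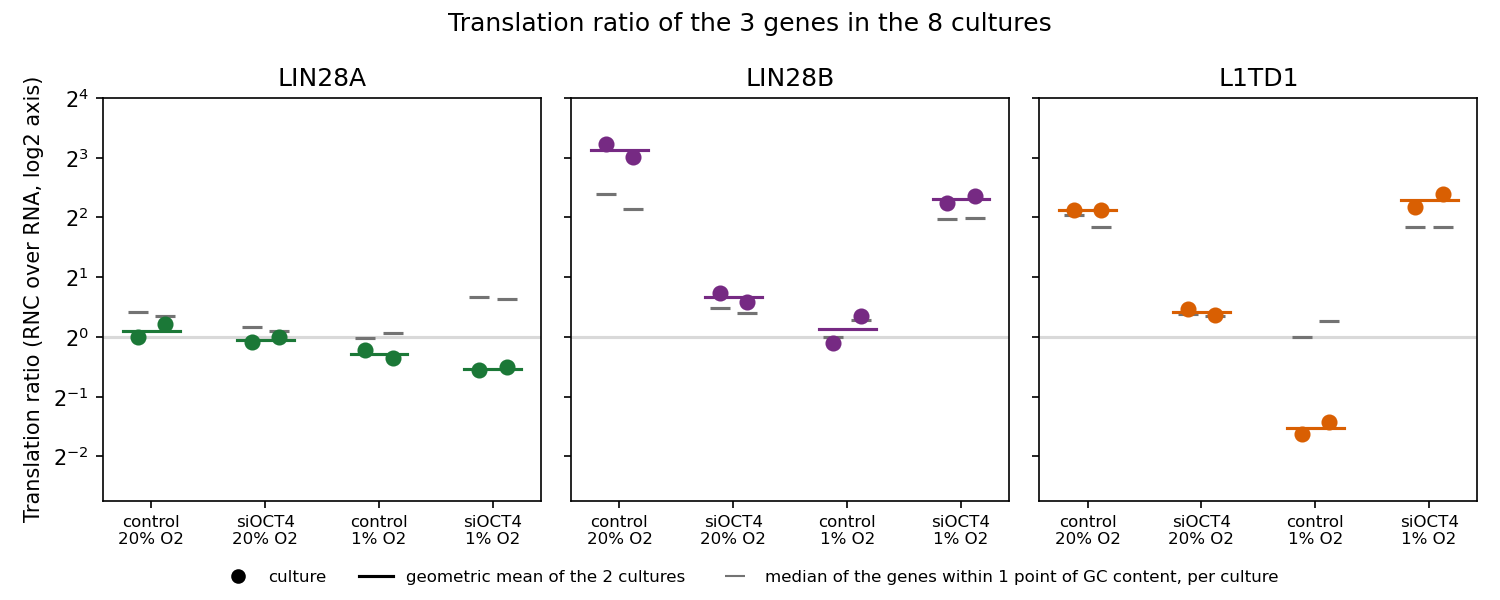
Translation ratio (log2 axis) of LIN28A, LIN28B and L1TD1 in the 8 cultures by group, with 1 point per culture, a line at the geometric mean of the 2 cultures and a grey dash at the median of the genes within 1 point of GC content in each culture. LIN28B and L1TD1 are high in control cells at 20% oxygen and siOCT4 cells at 1% oxygen and low in the other groups, L1TD1 is at 0.325 and 0.3732 in control cells at 1% oxygen where genes of like GC content are near 1, and LIN28A lies between 0.6814 and 1.157 throughout.

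At 20% oxygen the ratios of LIN28B and L1TD1 were lower in siOCT4 than in control cells, and LIN28A did not pass the test. LIN28B fell by 2.46 ± 0.2 on the log2 scale (5.49-fold, limma, adjusted p = 0.000653, n = 2 per group as throughout) and L1TD1 fell by 1.70 ± 0.15 (3.26-fold, adjusted p = 0.000654). LIN28A differed by -0.16 ± 0.14 (adjusted p = 0.377). In this comparison 34.1% of all genes were called lower and 19.2% higher. GC corrected, 7.89% were called lower and 7.44% higher, the L1TD1 difference was -0.18 ± 0.12 (adjusted p = 0.372), and that of LIN28B was -0.71 ± 0.12 (adjusted p = 0.0219). The corrected LIN28B call did not hold when control replicate 1 at 20% oxygen was left out, nor without either siOCT4 culture at 20% oxygen or siOCT4 replicate 1 at 1% oxygen (adjusted p 0.0501 to 0.134). With the mean GC content of its transcripts the LIN28B difference was -1.24 (adjusted p = 0.0128), and after quantile normalization neither LIN28B (-0.69, adjusted p = 0.169) nor L1TD1 (-0.37, adjusted p = 0.224) passed.

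At 1% oxygen the same siRNA went with higher ratios of LIN28B and L1TD1. L1TD1 rose by 3.81 ± 0.15 on the log2 scale (14.0-fold, limma, adjusted p = 0.000303), a difference that 57 of the 15864 genes exceeded. LIN28B rose by 2.18 ± 0.2 (4.52-fold, adjusted p = 0.000437), which 1555 exceeded. LIN28A differed by -0.25 ± 0.14 (adjusted p = 0.175). In this comparison 41.1% of genes were called higher and 19.9% lower, and the median difference of all genes was 0.42, so LIN28A stood further below the typical gene than below 0: centred on the median of each culture it was lower by 0.63 (log2 difference -0.63, adjusted p = 0.00822), and after quantile normalization it was -0.06 (adjusted p = 0.796).

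GC corrected, at 1% oxygen the 3 genes split. L1TD1 rose by 2.20 ± 0.12 on the log2 scale (4.59-fold, limma, adjusted p = 0.000989), and 265 of 15261 genes rose further. LIN28B rose by 0.45 ± 0.12 (1.36-fold, adjusted p = 0.0279), a call lost without any 1 of 6 cultures (all but the control cultures at 20% oxygen; adjusted p 0.0536 with the replicate number in the fit and up to 0.13 without a culture), and by 0.79 with the mean GC content of its transcripts (adjusted p = 0.0103). LIN28A fell by 0.83 ± 0.13 (1.77-fold, adjusted p = 0.00518), and this call held without each culture in turn (highest adjusted p = 0.0309). On this scale 21.8% of genes were called higher and 22.3% lower.

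In control cells, lower oxygen went with lower ratios of LIN28B and L1TD1. L1TD1 fell by 3.65 ± 0.15 on the log2 scale (12.5-fold, limma, adjusted p = 0.000152), with 182 of 15864 genes lower still. LIN28B fell by 3.0 ± 0.2 (7.97-fold, adjusted p = 0.00017), with 614 lower still. LIN28A differed by -0.39 ± 0.14 (adjusted p = 0.0532; 0.0447 without control replicate 1 at 20% oxygen), near the median of all genes, -0.31. In this comparison 39.6% of genes were called lower and 20.5% higher. GC corrected, L1TD1 fell by 1.86 ± 0.12 (adjusted p = 0.000558), LIN28B fell by 0.93 ± 0.12 (adjusted p = 0.00242; 1.58 lower with the mean GC content, log2 difference -1.58) and LIN28A differed by -0.07 ± 0.13 (adjusted p = 0.717), with 23.1% of genes called lower and 23.2% higher.

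In siOCT4 cells, lower oxygen went with higher ratios of LIN28B and L1TD1 and a lower ratio of LIN28A. LIN28B rose by 1.64 ± 0.2 on the log2 scale (3.11-fold, limma, adjusted p = 0.00127) and L1TD1 rose by 1.86 ± 0.15 (3.64-fold, adjusted p = 0.000683). LIN28A fell by 0.48 ± 0.14 (1.40-fold, adjusted p = 0.0274), a call lost without any 1 of the 4 siOCT4 cultures (adjusted p 0.0902 to 0.138) and after quantile normalization (-0.04, adjusted p = 0.862). In this comparison 37.4% of genes were called higher and 21.6% lower, with a median difference of 0.27. GC corrected, LIN28A fell by 1.00 ± 0.13 (1.99-fold, adjusted p = 0.00445), with and without each culture, L1TD1 rose by 0.51 ± 0.12 (adjusted p = 0.0243, lost without any 1 of the 4 siOCT4 cultures, 0.0549 to 0.122), and LIN28B differed by 0.23 ± 0.12 (adjusted p = 0.189), with 19% of genes called higher and 17.9% lower.

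The difference between the siRNA effects at the 2 oxygen levels was tested as an interaction. It was 5.51 ± 0.21 on the log2 scale for L1TD1 (limma, adjusted p = 8.04e-05) and 4.63 ± 0.28 for LIN28B (adjusted p = 8.11e-05), where a positive value means a higher siOCT4 effect at 1% oxygen. For LIN28A it was -0.09 ± 0.2 (adjusted p = 0.702), with a 95% interval of -0.58 to 0.40, and depended on the scaling: it was -0.55 after median centring, which passed (adjusted p = 0.0402), and 0.40 after quantile normalization, which did not (adjusted p = 0.222). Of all genes 42.5% had a positive call and 26.2% a negative one. The median was 0.49. GC corrected, the interaction was 2.38 ± 0.18 for L1TD1 (adjusted p = 0.00101), 1.16 ± 0.17 for LIN28B (adjusted p = 0.00379; 2.03 with the mean GC content) and -0.93 ± 0.19 for LIN28A (adjusted p = 0.0112; 0.0516 without siOCT4 replicate 2 at 20% oxygen), against 22.5% of genes with a positive and 21.2% with a negative call.

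**Figure D3:**
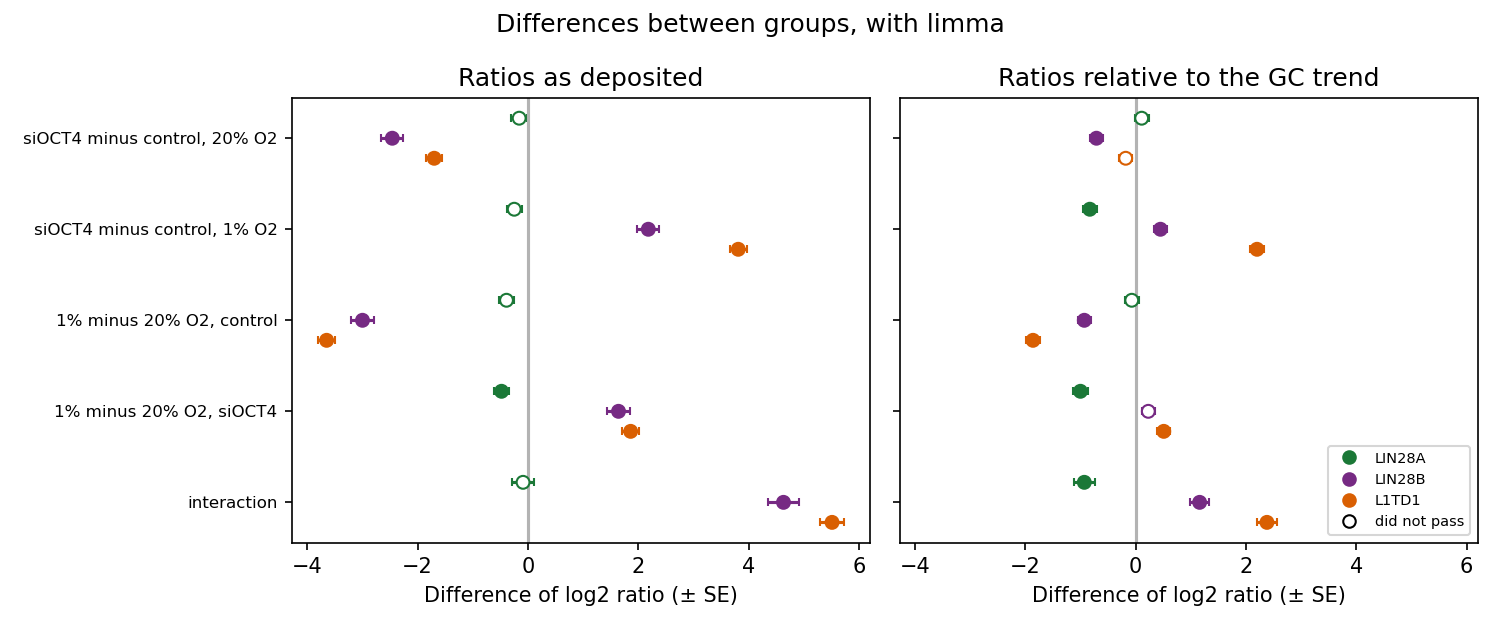
Differences of the log2 translation ratio between groups with their SE (horizontal axis) for the 4 comparisons and the interaction (vertical axis), from the deposited ratios (left) and relative to the GC trend (right), with filled points where limma's adjusted p is below 0.05. The LIN28B and L1TD1 differences lie nearer to 0 on the right than on the left in all 5 contrasts, and the LIN28A difference between siOCT4 and control at 1% oxygen lies further below 0 on the right.

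The balance of higher and lower calls moved with the scaling of the cultures. Median centring itself acts on this balance, and brought it nearer to even except for siOCT4 at 1% against control at 20% oxygen. Of the genes called at 1% oxygen, 67.4% were higher in siOCT4 cells as deposited, 52.7% after median centring and 53% after quantile normalization. At 20% oxygen this share was 36% as deposited, 41.9% after median centring and 31.5% after quantile normalization. For oxygen, 63.4% of the calls in siOCT4 cells were higher as deposited, 51.9% after median centring and 54.6% after quantile normalization. In control cells these shares were 34.1%, 42.9% and 45.5%. For siOCT4 at 1% against control at 20% oxygen the share was 50.7% as deposited, 33.8% after median centring and 38.6% after quantile normalization. For siOCT4 at 20% against control at 1% oxygen it was 75.1%, 58.9% and 50.4%. For the interaction it was 61.8%, 53% and 53.6%. The 2 comparisons across both factors that order the groups above called 26.5% of genes (siOCT4 at 1% against control at 20% oxygen) and 11.7% (siOCT4 at 20% against control at 1% oxygen) in either direction.

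The ratios of the 3 genes relative to each other do not depend on the scaling of a whole culture, but do depend on their GC content. LIN28B was 9.32 and 6.99 times LIN28A in the control cultures at 20% oxygen, 1.78 and 1.51 times in siOCT4 cells at 20% oxygen, 1.09 and 1.62 times in control cells at 1% oxygen, and 6.96 and 7.30 times in siOCT4 cells at 1% oxygen. GC corrected, LIN28B was 2.40 and 2.17 times LIN28A in the first of these groups, 1.41 and 1.19 in the second, 1.12 and 1.40 in the third and 2.99 and 3.06 in the last. The gap between the paralogues in the first and last of these groups was thus smaller relative to the GC trend, but remained. These corrected values use the GC content of the longest transcript only. L1TD1 was above LIN28A in 6 cultures, by 1.30 to 7.49 times, and below it in the control cultures at 1% oxygen, at 0.377 and 0.476 times. GC corrected, it was 1.09 to 3.48 times LIN28A in the former and 0.391 and 0.424 times in the latter. LIN28B was 2.88 and 3.41 times L1TD1 in these 2 cultures (2.87 and 3.30 GC corrected) and 0.974 to 2.14 times in the other 6 (0.879 to 1.72 GC corrected).

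Enzymes and other proteins that act in the making and turnover of let-7 were taken as a list of 18 genes, all tested. At 1% oxygen the ratios of 14 were higher and of 1 lower in siOCT4 than in control cells, beside 41.1% and 19.9% of all genes. Their median difference was 1.10 on the log2 scale beside 0.42. GC corrected, 10 were higher and 1 lower, beside 21.8% and 22.3% of all genes, with a median of 0.56 beside -0.01. DICER1, which cuts the precursor to the mature form, had ratios of 0.453 and 0.643 in control and 4.83 and 4.16 in siOCT4 cells at 1% oxygen, a rise of 3.05 ± 0.24 (limma, adjusted p = 0.000326) and of 1.37 ± 0.15 GC corrected (adjusted p = 0.00166). TUT4, the LIN28A partner, had 0.668 and 0.83 against 4.64 and 3.45, a rise of 2.43 ± 0.2 (adjusted p = 0.000336) and of 0.80 ± 0.18 GC corrected (adjusted p = 0.0167). AGO1, which binds mature microRNAs, had 0.739 and 0.758 against 2.46 and 2.75, a rise of 1.80 ± 0.17 (adjusted p = 0.000462) and of 0.91 ± 0.16 GC corrected (adjusted p = 0.00664). At 20% oxygen the same list had 2 higher and 10 lower as deposited, beside 19.2% and 34.1% of all genes, with a median of -0.71 beside -0.09. GC corrected it had 1 higher and 0 lower, beside 7.44% and 7.89%, with a median of -0.03 beside -0.03. Of 15 let-7 host and precursor transcripts only MIR99AHG and MIR100HG could be tested, which carry let-7 precursors among others. At 1% oxygen MIR99AHG rose by 1.54 ± 0.43 as deposited (limma, adjusted p = 0.0229) and differed by -0.13 ± 0.5 GC corrected (adjusted p = 0.848). MIR100HG did not pass there on either scale (adjusted p = 0.472 and 0.165). For siOCT4 at 20% oxygen MIR99AHG differed by 0.67 ± 0.43 as deposited (limma, adjusted p = 0.228). GC corrected, it rose by 2.3 ± 0.5 at 20% oxygen (adjusted p = 0.0374). MIR100HG did not pass at 20% oxygen either (adjusted p = 0.0766 as deposited and 0.991 GC corrected).

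Of 30 mRNAs known as let-7 targets, all tested, 18 were higher and 6 lower in siOCT4 cells at 1% oxygen, beside 41.1% and 19.9% of all genes, with a median of 1.05 on the log2 scale beside 0.42. GC corrected, 15 were higher and 7 lower, beside 21.8% and 22.3%, with a median of 0.39 beside -0.01. The share of lower targets was near that of all genes on both scales. CCND1, a cyclin of the G1 phase, had ratios of 0.248 and 0.254 in control and 1.16 and 1.35 in siOCT4 cells, a rise of 2.32 ± 0.15 (limma, adjusted p = 0.000303) and of 2.01 ± 0.13 GC corrected (adjusted p = 0.000989). TRIM71, an RNA-binding ubiquitin ligase that is itself repressed by let-7, had 0.434 and 0.478 against 2.39 and 2.09, a rise of 2.29 ± 0.14 (adjusted p = 0.000303) and of 1.55 ± 0.11 GC corrected (adjusted p = 0.000989). IGF2BP2, an mRNA-binding protein, had 0.765 and 0.81 against 2.48 and 2.35, a rise of 1.62 ± 0.12 (adjusted p = 0.000313) and of 1.07 ± 0.1 GC corrected (adjusted p = 0.00119). In control cells 7 targets were higher and 16 lower at 1% than at 20% oxygen, beside 20.5% and 39.6% of all genes. GC corrected these counts were 7 and 14, beside 23.2% and 23.1%. The share of higher targets was near that of all genes on both scales.

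The 16 mRNAs listed as reported LIN28-bound were mostly on the other side at 1% oxygen, with 4 higher and 9 lower in siOCT4 cells, beside 41.1% and 19.9% of all genes, and a median of -0.67 on the log2 scale beside 0.42. GC corrected, 2 were higher and 9 lower, beside 21.8% and 22.3%, with a median of -0.54 beside -0.01. NDUFB8, a subunit of respiratory complex I, had ratios of 1.61 and 1.25 in control and 0.35 and 0.367 in siOCT4 cells and fell by 1.99 ± 0.2 (limma, adjusted p = 0.000598) and by 1.81 ± 0.15 GC corrected (adjusted p = 0.00109). TARDBP and TIA1, a pair of RNA-binding proteins, went the other way. TARDBP rose by 2.20 ± 0.15 (adjusted p = 0.000305) and by 0.57 ± 0.1 GC corrected (adjusted p = 0.00596; 0.89 with GC content averaged over transcripts). TIA1 rose by 2.16 ± 0.22 (adjusted p = 0.000562) and by 0.40 ± 0.11 GC corrected (adjusted p = 0.0334). POU5F1 is in this list and fell by 0.96 ± 0.22 (adjusted p = 0.0116) and by 1.39 ± 0.21 GC corrected (adjusted p = 0.0046), or by 0.81 with GC content averaged over its transcripts.

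Other RNA-binding proteins of pluripotent and germ cells, 22 of 26 with a ratio in every culture, had 18 higher and 0 lower at 1% oxygen, beside 41.1% and 19.9% of all genes, and a median of 1.31 on the log2 scale beside 0.42. GC corrected, 10 were higher and 2 lower, beside 21.8% and 22.3%, with a median of 0.40 beside -0.01 (14 and 2 with GC content averaged over transcripts). DPPA5, NANOS3, DAZL and DDX4 were not tested. TRIM71 and IGF2BP2 are also in this list. IGF2BP3 had ratios of 0.695 and 0.895 in control and 4.06 and 3.81 in siOCT4 cells, a rise of 2.32 ± 0.19 (limma, adjusted p = 0.000346) and of 0.72 ± 0.11 GC corrected (adjusted p = 0.00404). Of the 6 cold-shock domain proteins besides LIN28, 1 was higher and 2 lower as deposited, beside 41.1% and 19.9% of all genes, and 1 higher and 0 lower GC corrected, beside 21.8% and 22.3% (2 and 1 with GC content averaged over transcripts), counts too small to set apart from those shares. YBX3 and YBX2, which package mRNA, were the lower ones, at -0.58 ± 0.14 and -1.23 ± 0.32 as deposited (adjusted p = 0.0138 and 0.0172).

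All 15 pluripotency markers had a ratio in every culture. At 1% oxygen 11 were higher and 1 lower in siOCT4 cells, beside 41.1% and 19.9% of all genes, with a median of 1.31 on the log2 scale beside 0.42. GC corrected, 10 were higher and 2 lower, beside 21.8% and 22.3%, with a median of 1.27 beside -0.01. TDGF1, a NODAL co-receptor, rose by 2.21 ± 0.16 on the log2 scale (limma, adjusted p = 0.000313) and by 0.97 ± 0.12 GC corrected (adjusted p = 0.00207). SALL4, a zinc-finger factor, rose by 1.67 ± 0.14 (adjusted p = 0.000354) and by 1.5 ± 0.14 GC corrected (adjusted p = 0.00126). In control cells 0 of these markers were higher and 11 lower at 1% than at 20% oxygen, beside 20.5% and 39.6% of all genes, and 1 and 10 GC corrected, beside 23.2% and 23.1%.

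Of 18 markers of other cell types (fibroblast, trophoblast, endoderm, mesoderm and neural), all had a ratio in some culture and 11 were tested, of which 0 were higher and 2 lower in siOCT4 cells at 1% oxygen, beside 41.1% and 19.9% of all genes, the collagen genes COL1A2 (-0.88 ± 0.18 on the log2 scale, limma, adjusted p = 0.00742) and COL1A1 (-1.06 ± 0.25, adjusted p = 0.0115), of which COL1A2 also passed GC corrected. In control cells 5 were higher and 2 lower at 1% than at 20% oxygen as deposited, beside 20.5% and 39.6% of all genes, and 4 and 2 GC corrected, beside 23.2% and 23.1%. The table gives no levels, so the summed level of these markers and their part in the result were not tested, and fewer cells of a type and less RNA per cell cannot be told apart in bulk samples.

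**Figure D4:**
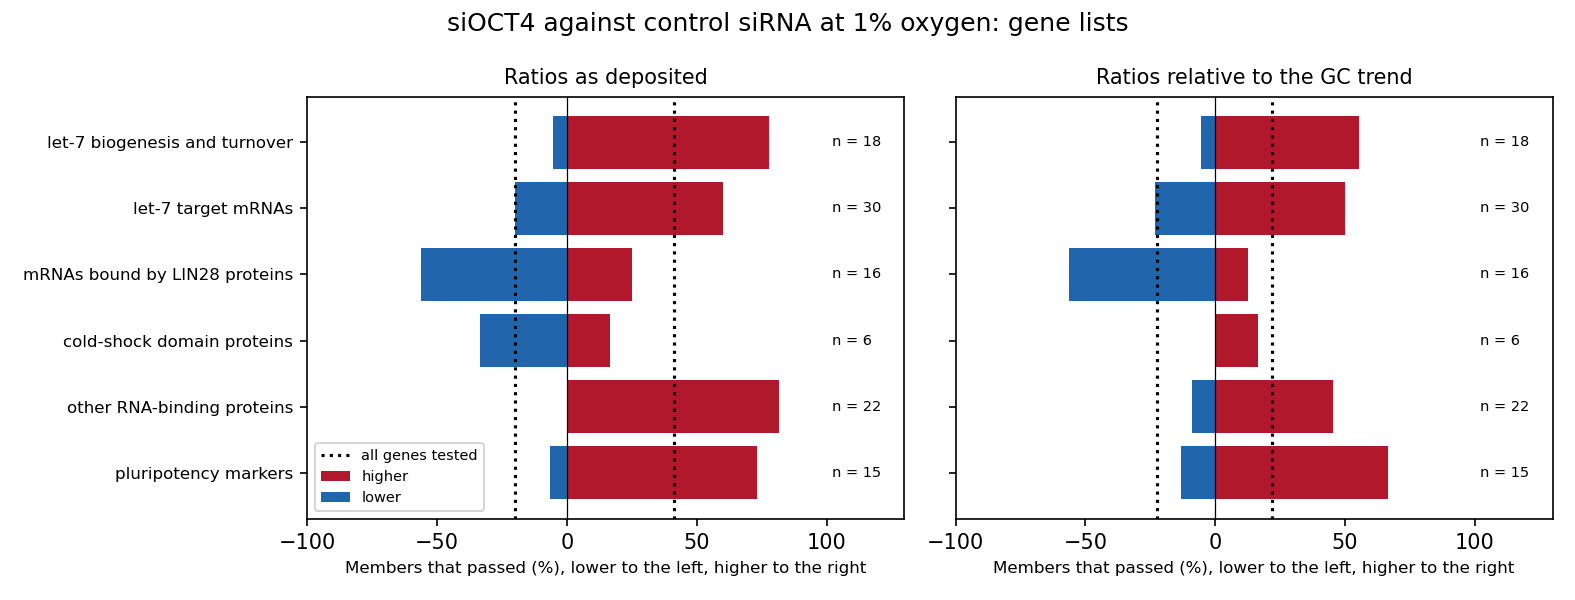
Share of the tested members of 6 gene lists, in percent, that were higher (red, right) or lower (blue, left) in siOCT4 than in control cells at 1% oxygen, from the deposited ratios (left) and relative to the GC trend (right), with dotted lines at the shares of all tested genes and n the number of members tested. Of the 6 lists drawn, the LIN28-bound mRNAs have more lower than higher members on both sides, 9 against 4 and 9 against 2.

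The genes whose log2 ratios followed each of the 3 most closely over the 8 cultures were picked by Pearson correlation, given as a description over cultures that share their libraries. For L1TD1 they included TFDP2 (r = 0.9997), SEMA3A (0.9991), KTN1 (0.9975), and PGM2L1 (0.9972). For 793 genes r was above 0.95. TFDP2 had log2 ratios of 0.96 and 0.97 in control and 0.05 and 0.07 in siOCT4 cultures at 20% oxygen, -0.96 and -0.86 in control cells at 1% oxygen and 0.99 and 1.10 in siOCT4 cells at 1% oxygen, the same order as L1TD1 over a narrower range. SEMA3A kept its likeness to L1TD1 after GC correction (r = 0.9967), where it was again low in control cells at 1% oxygen (-1.72 and -1.81) and where 213 genes were above 0.95.

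For LIN28B the closest genes were FAM200A (r = 0.9991), ITGB1 (0.999), ATP6V1C1 (0.999), OLA1 (0.9988) and DEPDC1B (0.9988), all with 39.4% to 40.4% GC content, and 1884 genes were above 0.95, and 125 after GC correction. FAM200A had log2 ratios of 2.93 and 2.67 in control and 0.42 and 0.41 in siOCT4 cultures at 20% oxygen, and of -0.33 and 0.15 in control and 1.99 and 2.16 in siOCT4 cultures at 1% oxygen. For LIN28A they were UBE2D2 (0.9931), SERF1B (0.9839), SNRPG (0.9787), MANF (0.9738) and MGST3 (0.9711), and 28 genes were above 0.95, 194 after GC correction. UBE2D2 had log2 ratios from 0.44 and 0.63 in control cells at 20% oxygen to -0.18 and -0.12 in siOCT4 cells at 1% oxygen. Between the 3 genes the correlation was 0.916 for LIN28B and L1TD1 (0.67 GC corrected), 0.157 for LIN28A and LIN28B (-0.07 GC corrected) and 0.029 for LIN28A and L1TD1 (-0.394 GC corrected).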

How the data were processed

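The deposited table gives 1 ratio per gene and culture, made by the authors and taken here, from the series title and the column names, as the RNC level over the RNA level of the libraries with the same label. Columns marked sO were read as siOCT4. The submitters' processing notes name edgeR and hg19 without a role. The mapper, annotation, filters and library totals are not stated there, so depth is unknown and no interval for counting error can be given. A dash marks a missing ratio, and no ratio is 0.

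The log2 ratio of the 15864 genes with a ratio in all 8 cultures was the input to limma 3.58.1 (run in R 4.3.3 with statmod 1.5.0; trend and robust settings, 4 group means, 4 residual degrees of freedom). Tests were two-sided, adjusted by Benjamini-Hochberg over all genes of a comparison, with a threshold of 0.05, and the fit was tested on simulated data. GC correction took the residual from a spline with 6 degrees of freedom per culture on the GC content of the longest protein-coding transcript (15261 genes, 96.2%; longest transcript for other genes). Tables and figures used Python 3.11.15, numpy 2.4.6, pandas 2.3.3 and matplotlib 3.10.9.

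The genes described, the 8 lists and the tests were chosen with earlier results of these data known. From each list at most 3 members with the smallest adjusted p at 1% oxygen were named, with POU5F1, and for each of the 3 genes the 5 with the highest correlation. Some genes that this rule names are not reported here. Alternatives were GC and length correction, median centring, quantile normalization, a replicate block, plain limma with neither trend nor robust setting, a pseudocount of 0.1, leaving out genes with a ratio that at least 3 genes of a culture share (within a relative 2e-06), a fit of the compared groups alone, and dropping each culture in turn. GC content averaged over transcripts was added after seeing the data.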

Additional observations from a re-analysis of the deposited data

Results flagged for a closer look

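The siOCT4 effect differed between 1% and 20% oxygen, by limma's interaction test, for L1TD1 (5.51 on the log2 scale, adjusted p = 8.04e-05) and LIN28B (4.63, adjusted p = 8.11e-05). Both cultures of siOCT4 cells were above both control cultures at 1% oxygen and below them at 20% oxygen, for both genes. The share of all genes with this separation was not counted. Of all genes 42.5% had a positive interaction call and 26.2% a negative one. Relative to the GC trend the difference was 2.38 for L1TD1 (adjusted p = 0.00101), 1.16 for LIN28B (adjusted p = 0.00379) and -0.93 for LIN28A (adjusted p = 0.0112). The share of the log2 ratio's variance that followed GC content was 64.4% to 71.7% in the control cultures at 20% and the siOCT4 cultures at 1% oxygen and at most 14.2% in the others. What made the cultures differ in this was not tested.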

How the results depend on the processing

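Values here are differences on the log2 scale. The LIN28B and L1TD1 calls from the deposited ratios in the 4 comparisons and the interaction kept direction and call with each culture left out in turn, after median centring, with a replicate block, with a pseudocount, with plain limma settings and without genes with a recurrent ratio. Plain limma settings and the pseudocount changed no call of LIN28A either, and removing genes with a recurrent ratio made 1 LIN28A value pass, -0.392 for oxygen in control cells (adjusted p = 0.0231).

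For siOCT4 at 20% oxygen, GC correction gave 0.105 for LIN28A and -0.176 for L1TD1, GC and length correction 0.137 and -0.145, and GC content averaged over transcripts 0.406 and -0.024; quantile normalization gave -0.690 for LIN28B and -0.371 for L1TD1. For siOCT4 at 1% oxygen, LIN28A was -0.826 with GC, -0.943 with GC and length, -1.100 with averaged GC and -0.630 with median centring, and LIN28B was 0.335 with GC and length. For oxygen in siOCT4 cells, LIN28B was 0.226, 0.090 and 0.449 under the 3 GC corrections and 0.193 after quantile normalization, and LIN28A -0.044 after the latter; for oxygen in control cells LIN28A was 0.259 with averaged GC. The LIN28A interaction was -0.931, -1.079 and -1.507 under the 3 GC corrections, -0.548 with median centring, all 4 passing, and 0.397 with quantile normalization, not passing. In siOCT4 at 1% against control at 20% oxygen, L1TD1 was 0.458 with averaged GC and -0.026 with median centring, and quantile normalization gave -0.501 for LIN28A and -0.497 for LIN28B; fitted with only the groups compared, these were -0.640 and -0.819 and did not pass. In siOCT4 at 20% against control at 1% oxygen, quantile normalization gave -0.017 for LIN28A and 1.072 for LIN28B. For these changes the cause was not tested.

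The replicate numbers did not pair the cultures: same-numbered cultures correlated by -0.233 to 0.023 over the deviations from group means. With the replicate block, LIN28A for oxygen in siOCT4 cells (-0.484), and LIN28A (-0.640) and LIN28B (-0.819) in siOCT4 at 1% against control at 20% oxygen no longer passed. The replicate block with GC correction gave 0.105, -0.713 and -0.176 for LIN28A, LIN28B and L1TD1 at 20% oxygen, none passing, -0.826 and 0.447 for LIN28A and LIN28B at 1% oxygen, 0.226 for LIN28B for oxygen in siOCT4 cells, -0.931 for the LIN28A interaction and -0.487 for LIN28B in siOCT4 at 1% against control at 20% oxygen.

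With 1 culture left out the lone culture was assumed to vary like the other groups. From the deposited ratios LIN28A then ranged from -0.494 to -0.290 for oxygen in control cells, -0.525 to -0.442 for oxygen in siOCT4 cells, -0.194 to 0.010 for the interaction and -0.742 to -0.538 in siOCT4 at 1% against control at 20% oxygen, where LIN28B ranged from -0.924 to -0.713; L1TD1 ranged from 1.844 to 2.044 in siOCT4 at 20% against control at 1% oxygen. GC corrected, LIN28B ranged from -0.758 to -0.669 at 20% oxygen, 0.381 to 0.512 at 1% oxygen and -0.530 to -0.444 in siOCT4 at 1% against control at 20% oxygen, L1TD1 from 0.417 to 0.610 for oxygen in siOCT4 cells, and LIN28A from -1.031 to -0.832 for the interaction and -0.165 to 0.035 for oxygen in control cells.

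The number of genes called moved by over 1.5 times in every comparison. For siOCT4 at 20% oxygen it was 8450 as deposited, 2340 GC corrected, 442 GC corrected with the block, 1838 after quantile normalization and 5063 to 9244 with 1 culture left out (3 to 1911 when GC corrected). For siOCT4 at 1% oxygen it was 9672, with 6025 GC corrected with the block and 6405 after quantile normalization. For oxygen in control cells it was 9545, with 6340 GC corrected with the block and 6230 without recurrent ratios, where 8087 genes were tested. For oxygen in siOCT4 cells it was 9362, with 5625 GC corrected, 4730 with the block too and 5018 after quantile normalization, and for the interaction 10893, 6676, 5943 and 7034. For siOCT4 at 1% against control at 20% oxygen it was 4207, with 153 after quantile normalization, 1435 with only the groups compared and 990 to 4013 with 1 culture left out. For siOCT4 at 20% against control at 1% oxygen it was 1855, with 3427 GC corrected, 5460 after quantile normalization, 684 under the block, 595 with only the groups compared and 0 to 2356 with 1 culture left out. Depth could not be judged from ratios.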
